A study of Mus musculus with 3 samples.

Results

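The intergenic FOXF1 sites described here are positions between genes where both replicates of a chromatin immunoprecipitation and sequencing experiment had a peak summit. They were chosen from the authors' summit lists in 3 steps. Summits of both replicates that were each other's nearest and at most 100 bp apart were paired, and the site was placed midway. Sites inside any RefSeq protein-coding gene were dropped. Those over 1 kb and at most 100 kb from the nearest end of a protein-coding gene were kept, which left 13623 of 51013 shared sites (26.7%, exact 95% interval 26.3 to 27.1%). The mice were wild-type C57BL/6 embryos at embryonic day 18.5, and the chromatin was that of whole lung. Both biological replicates (n = 2) pooled 3 lungs each. The tissue was fixed with formaldehyde at 1%, and the chromatin was cut with micrococcal nuclease and then sonicated. From each, 10 µg of chromatin was precipitated with 7 µg of an antibody to FOXF1, and a 2% input was the control. Whole lung mixes many cell types, so the cells in which a site was bound cannot be told apart. Both replicates are 1 condition, so no test between groups is possible, and the sites, windows and genes counted below are not independent replicates.

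FOXF1 is a forkhead transcription factor of the lung mesenchyme and of the endothelium that lines its vessels. Mutations of the gene in people cause a failure of lung capillary development. Forkhead proteins bind short AT-rich DNA with a core close to TGTTTAC, and much of their binding lies at distal elements rather than at promoters. Distal elements can act on a gene far away and can skip the nearest one. The nearest gene end therefore labels a position here and says nothing of which gene a site acts on.

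Sequence was read for those intergenic sites that fell in the promoter window of a long noncoding RNA (lncRNA) gene, because the reference tables hold that sequence. Each window covers 250 bases before to 50 bases after a gene's start. The sites below were picked for print after their values were seen, from among the highest with and without the forkhead letters. Each sequence covers at most 75 bases on either side of the site, on the strand of the lncRNA gene, 5′ to 3′, from RefSeq on GRCm38.p6. Capitals mark TGTTTAC or TGTTTAT, or the same letters on the opposite strand, where TGTTTAC reads as GTAAACA and TGTTTAT reads as ATAAACA. The site at Gm17745 is shown from chr10:93336118-93336260 (plus strand), that at 2900052L18Rik from chr11:120231578-120231728 (minus), that at Fendrr from chr8:121083169-121083319 (minus), that at E130102H24Rik from chr4:101356199-101356277 (minus) and that at Gm31668 from chr1:179878379-179878529 (minus). Those at Gm30525, from chr11:53307796-53307946 (minus), and Malat1, from chr19:5802623-5802716 (minus), hold neither word.
Gm17745: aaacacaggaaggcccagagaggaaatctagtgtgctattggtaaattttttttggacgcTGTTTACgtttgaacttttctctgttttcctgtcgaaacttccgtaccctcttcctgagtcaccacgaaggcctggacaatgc
2900052L18Rik: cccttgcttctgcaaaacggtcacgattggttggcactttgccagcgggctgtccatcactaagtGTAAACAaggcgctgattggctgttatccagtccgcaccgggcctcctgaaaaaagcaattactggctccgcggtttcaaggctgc
Fendrr: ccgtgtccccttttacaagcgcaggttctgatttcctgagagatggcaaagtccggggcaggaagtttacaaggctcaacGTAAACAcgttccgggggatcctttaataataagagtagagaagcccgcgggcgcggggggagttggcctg
E130102H24Rik: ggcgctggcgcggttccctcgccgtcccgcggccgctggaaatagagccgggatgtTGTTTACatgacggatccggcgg
Gm31668: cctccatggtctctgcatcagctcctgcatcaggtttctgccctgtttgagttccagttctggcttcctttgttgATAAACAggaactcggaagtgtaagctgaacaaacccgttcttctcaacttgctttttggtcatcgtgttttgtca
Gm30525: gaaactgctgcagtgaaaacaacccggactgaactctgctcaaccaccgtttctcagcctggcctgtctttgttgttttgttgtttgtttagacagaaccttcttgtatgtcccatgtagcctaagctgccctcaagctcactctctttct
Malat1: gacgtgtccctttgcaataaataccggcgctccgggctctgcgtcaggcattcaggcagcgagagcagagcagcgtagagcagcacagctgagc
The capitals lay 12 bp from the site at Gm17745, 7 bp at 2900052L18Rik, 8 bp at Fendrr, 16 bp at E130102H24Rik and 3 bp at Gm31668. At Gm33370, whose site was also among the highest but is not printed, the letters lay 36 bp away.

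The scores of these sites are the authors' −log10 significance at the summit, which rests on a depth that is not given, so a score is compared only within a replicate. The Gm17745 site scored 241.0 in replicate 1 and 125.6 in replicate 2, and its nearest coding gene was Elk3, an ETS-family transcription factor gene, 25034 bp away. The 2900052L18Rik site scored 187.3 and 106.4, the E130102H24Rik site 173.6 and 88.2, and the Gm31668 site 157.8 and 83.8. The Fendrr site scored 168.1 and 90.9. Fendrr is a lncRNA of lateral mesoderm transcribed away from Foxf1, and this site lay 134 bp before its start and 1142 bp from Foxf1. Sites without either word reached the same range. That at Gm30525 scored 229.7 and 122.0, and that at Malat1, an abundant nuclear RNA, scored 176.3 and 127.0. A high score was thus found both with and without these exact words in the sequence read. Other forkhead-like words were not searched, and the Malat1 stretch ends close to its site on one side.

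Over all lncRNA windows the forkhead letters were more frequent where a site was present. In all, 211 intergenic sites lay in 224 such windows, some of which overlap and share a site. TGTTTAC or TGTTTAT on either strand was present in 56 of the 224 windows (25.0%, exact interval 19.5 to 31.2%). The share was 38.6% of the 44 windows whose site was in the highest 20% of shared sites in both replicates (24.4 to 54.5%) and 21.7% of the other 180 (15.9 to 28.4%). It was 10.8% of the 4984 windows in the same intergenic space without a shared site (9.93 to 11.7%) and 10.2% of all 11587 lncRNA windows. The intervals cover counting error only.

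The same letters in reversed order (CATTTGT and TATTTGT, both strands), which have the same base composition, were used as a yardstick. They were present in 11.6% of the windows with a site (7.72 to 16.5%) and in 10.8% of those without (9.98 to 11.7%). Where the forkhead letters were present their centre lay a median of 14 bp from the site, and in 45 of 56 windows it lay within 50 bp. For the reversed letters the median was 81 bp, and 12 of 26 lay within 50 bp. The median GC content was 51.3% in windows with a site and 47.7% in those without, and its part in these shares was not tested. In promoter windows of coding genes, the letters were present in 6.70% of 4345 windows with a shared site (5.97 to 7.48%) and in 6.73% of 16885 without (6.36 to 7.12%). The reversed letters were in 2.99% of those with a site (2.51 to 3.54%) and 6.80% of those without (6.43 to 7.20%). Against that yardstick the forkhead letters were more frequent in coding windows with a site too, where the median GC content was 62.7%, against 54.3% without.

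**Figure D1:**
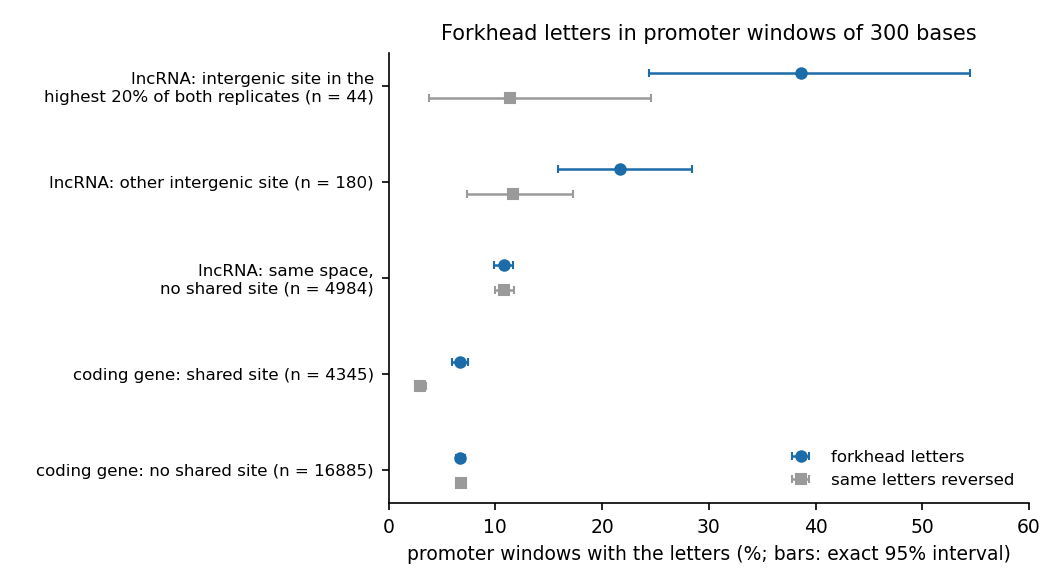
Share of 300-base promoter windows that hold the forkhead letters (blue circles) or the same letters reversed (grey squares), with exact 95% intervals, for lncRNA windows with an intergenic FOXF1 site, lncRNA windows in the same space without one, and windows of coding genes. The forkhead letters stand at 38.6% and 21.7% in the lncRNA windows with a site and at 10.8% without, while the reversed letters stay between 10.8% and 11.7% in all 3.

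A site also fell on a microRNA whose own sequence carries the forkhead letters. MicroRNAs are short RNAs that repress messenger RNAs matched to their seed, bases 2 to 8, which is capitalised below. Of 1005 mouse hairpins in the RefSeq table, 63 lay within 5 kb of an intergenic site, 25 within 1 kb, and 1, Mir30a, held a site. With 16.2 intergenic sites per Mb of eligible sequence, some hairpins lie near a site by position alone. The share for other positions was not counted, so these numbers do not set microRNA genes apart. The microRNAs named here were chosen after their values were seen. Mir30a lies at chr1:23272269-23272339 on the plus strand, and the site, at 23272291, scored 118.7 and 53.5. The nearest coding gene end, that of Ogfrl1, was 94133 bp away. In the hairpin, capitals mark the forkhead letters on the opposite strand, which were centred 13 bp from the site and are the seed of the mature miR-30a-5p.
Mir30a hairpin: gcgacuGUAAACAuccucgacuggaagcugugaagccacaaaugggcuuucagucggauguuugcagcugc
mmu-miR-30a-5p: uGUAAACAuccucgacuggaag
The forkhead letters are not particular to Mir30a. All 4 hairpins of the family in the table (Mir30a, Mir30c-1, Mir30c-2 and Mir30e) carry them, since they share the seed GUAAACA, and no site fell in the other 3. The nearest shared site was 4865 bp from Mir30c-2, with scores of 8.22 and 3.64, and 44697 and 41622 bp from Mir30c-1 and Mir30e.

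Other microRNA genes also had a site close by. Mirlet7i, which encodes a member of the let-7 family, had a site 27 bp upstream with scores of 69.4 and 70.8. The cluster that holds Mir17, Mir18, Mir19a, Mir20a, Mir19b-1 and Mir92-1, needed for lung growth, had 1 site 2709 bp upstream of its first member, with scores of 96.2 and 51.4. Mir200c and Mir141, of the epithelial miR-200 family, shared 1 site 456 and 861 bp upstream, with scores of 36.6 and 28.6. Mir210, a hypoxia-induced microRNA, had a site 220 bp upstream with scores of 32.2 and 20.7. The mature sequences are given with their seeds in capitals, and they fall into 4 seeds: GAGGUAG for let-7i, AAAGUGC for miR-17 and miR-20a, AAUACUG for miR-200c, and AACACUG for miR-141.
mmu-let-7i-5p: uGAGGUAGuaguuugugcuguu
mmu-miR-17-5p: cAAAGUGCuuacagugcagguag
mmu-miR-20a-5p: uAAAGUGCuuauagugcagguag
mmu-miR-200c-3p: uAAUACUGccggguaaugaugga
mmu-miR-141-3p: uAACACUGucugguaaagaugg
The seeds of miR-200c and miR-141 are alike but not the same, and 1 site stood near both hairpins.

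The replicates differed in length of list but ranked the intergenic sites alike. Replicate 1 had 107378 summits on the nuclear chromosomes and replicate 2 had 61172. In the space between genes at 1 to 100 kb, 46.5% of the 29283 summits of replicate 1 and 86.6% of the 15721 of replicate 2 were paired. The median distance between paired summits was 13 bp (quartiles 4 and 27 bp). The scores of the 13623 sites ran from 3.12 to 313.2 in replicate 1, with a median of 46.0, and from 2.32 to 178.3 in replicate 2, with a median of 17.6. Across these sites Spearman's rho of the scores was 0.923, a description over sites that share 2 libraries and 1 input.

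**Figure D2:**
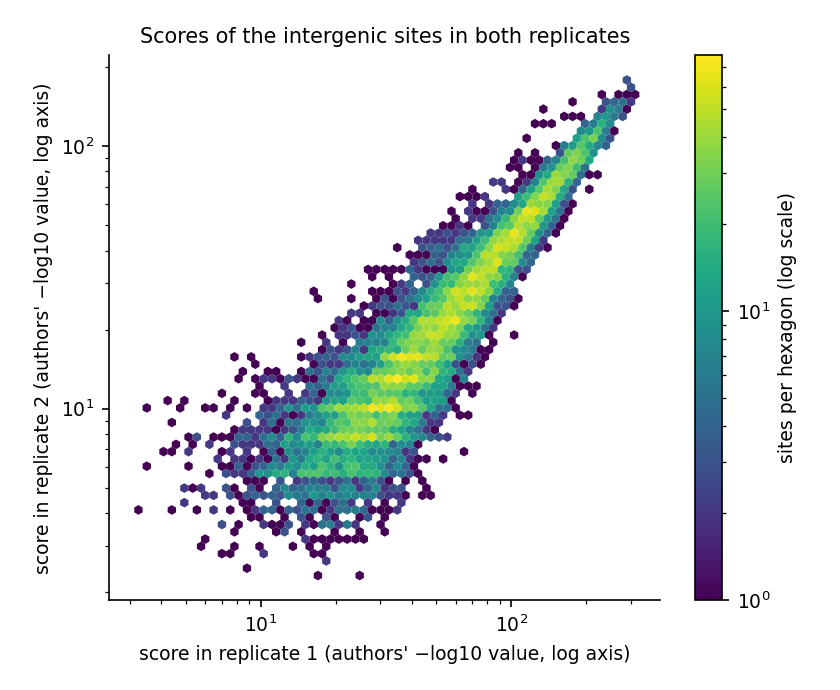
Scores (authors' −log10 values, log axes) of the 13623 intergenic sites in replicate 1 and replicate 2, with colour for the number of sites in each hexagon. The sites form 1 band that narrows toward the high scores, with rho at 0.923.

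Set beside sites elsewhere, the intergenic sites were sparser than those at gene ends and inside genes and denser than those over 100 kb away. Their strength relative to gene ends depended on the replicate. There were 16.2 sites per Mb of eligible intergenic sequence, against 111 within 1 kb of a gene end, 23.1 inside genes and 7.38 in gaps over 100 kb from an end. In replicate 1 their median score was 46.0, against 40.3 at gene ends, 44.5 inside genes and 46.9 over 100 kb away. In replicate 2 it was 17.6, against 27.8, 17.4 and 18.4. Intergenic sites were thus above gene-end sites in replicate 1 and below them in replicate 2, and near the other sites in both. The same turn showed in the share of sites in the highest 20% of all shared sites. For intergenic sites it was 23.0% in replicate 1 and 19.2% in replicate 2, and for gene ends 9.73% and 25.3%.

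Sites were sparser farther from genes, with no step at the limits used. The median distance to the nearest coding gene end was 21828 bp (quartiles 8438.5 and 46625 bp), and 71.1% of sites lay beyond 10 kb. Per Mb of sequence at that distance there were 20.2 sites at 1 to 2 kb, 18.2 at 2 to 5 kb, 16.8 at 5 to 10 kb, 17.0 at 10 to 20 kb, 16.2 at 20 to 50 kb and 14.0 at 50 to 100 kb. Just outside the limits there were 20.3 per Mb at 0.5 to 1 kb and 11.9 at 100 to 150 kb. The median score moved little over the same range, from 43.1 in replicate 1 at 1 to 2 kb to 47.4 at 50 to 100 kb, and from 18.1 to 18.0 in replicate 2.

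**Figure D3:**
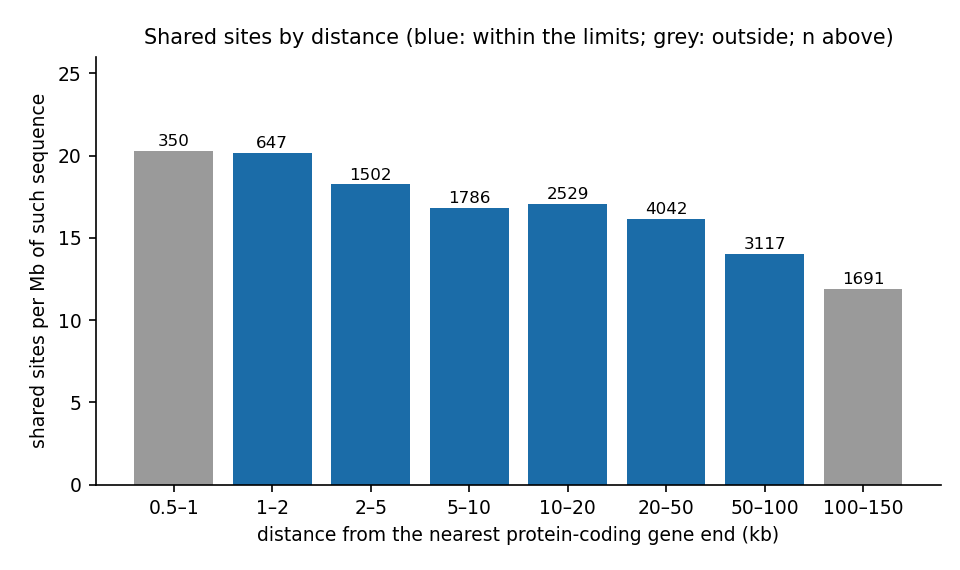
Shared FOXF1 sites per Mb of intergenic sequence by distance from the nearest protein-coding gene end, with the number of sites above each bar; blue bars lie within the limits of 1 and 100 kb, grey bars just outside. The density goes from 20.2 to 14.0 per Mb within the limits and joins the grey bars on both sides.

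The label of a nearest gene was often a close choice, and sites lay on both sides of genes. For 7433 sites (54.6%) the gene on the other side of the gap also lay within 100 kb, and for 3597 (26.4%) it was less than 2 times as far as the nearest. Where the nearest gene's strand is in the reference tables (10402 sites), 5727 sites lay upstream of the gene (55.1%, exact interval 54.1 to 56.0%) and 4675 downstream. Per Mb of such sequence that was 16.2 upstream and 15.3 downstream. The share upstream was 55.1% at 1 to 5 kb, 55.3% at 5 to 20 kb and 54.9% at 20 to 100 kb, so it did not change with distance by more than 1 percentage point.

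Density also differed between chromosomes. Among autosomes it ran from 11.5 sites per Mb on chromosome 7 to 24.0 on chromosome 11, and chromosome X had 4.67 per Mb (305 sites). Chromosome Y had 1 site. Each replicate alone had chromosome X below every autosome, with 9.81 summits per Mb in replicate 1 and 5.16 in replicate 2, against 24.4 and 13.2 on chromosome 7. The sex of the pooled embryos is not in the sources used here.

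When sites were assigned by nearest end, most coding genes had none. Flanks differ in length, and the share for evenly spread sites was not counted. Of 21887 coding genes, 5361 had at least 1 intergenic site (24.5%), 769 had at least 5 (3.51%), and 1576 had at least 1 from the 10000 highest summits of each replicate (7.2%). Of the 5361, 2477 had a single site, while 129 genes with 10 or more held 1623 sites (11.9% of all). The mean was 0.622 sites per coding gene, or 1.62 per 100 kb of eligible flank, the intergenic sequence nearest to a gene. Of the 5361 genes, 1336 (24.9%) had no shared site inside the gene or within 1 kb of its ends, against 44.3% of all coding genes. A gene-end site was present at 2826 (52.7%, against 41.5% of all) and one inside at 3696 (68.9%, against 48.1% of all).

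The highest intergenic sites, ranked by the mean of their ranks in both replicates, lay nearest to genes of varied function. The highest of all, 16683 bp downstream of Adamts9 on chromosome 6 at 92756016, scored 305.8 and 173.1. The next, 47733 bp downstream of Adamts1 on chromosome 16 at 85746094, scored 299.0 and 177.0. Both genes encode secreted metalloproteases that cut matrix proteoglycans. A site 56057 bp upstream of Cldn5, the claudin of endothelial tight junctions, scored 272.5 and 157.9. One 41266 bp downstream of Pdgfra, the PDGF receptor of mesenchymal cells, scored 282.5 and 153.0. In the same gap, one 96166 bp upstream of Kit, the receptor of stem cell factor, scored 277.9 and 144.3.

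Other genes nearest to the 15 highest sites included Cd200, an immune-inhibitory surface protein; Jcad, a protein of endothelial junctions; Mrtfb, a coactivator of SRF; Pltp, a lipid transfer protein of plasma; Adgre5, an adhesion receptor; Ddx1, an RNA helicase; Fbxl7, an F-box protein; Zfp608, a zinc finger protein; and A1bg. The scores of all 15 ran from 272.5 to 313.2 in replicate 1 and from 143.1 to 178.3 in replicate 2.

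With the limits used, the gene with most intergenic sites was S1pr1, which encodes the endothelial receptor of sphingosine 1-phosphate that keeps vessels tight, with 22. They lay 1.14 to 78.6 kb from the gene, 11 on each side. Their scores ran from 8.75 to 222.7 in replicate 1 (median 44.6) and from 4.76 to 103.4 in replicate 2 (median 16.5). The highest, 27.5 kb from the gene, was the same site in both replicates, followed in both by one 17.3 kb away with scores of 192.4 and 96.1. High and low sites alternated along both flanks. The site nearest to the gene, 1.14 kb away, scored 142.4 and 64.5, and one 53.8 kb away on the other side scored 180.3 and 87.1.

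Tmem100, an endothelial membrane protein downstream of BMP signalling, had 17 sites. There were 16 between Tmem100 and Mmd, where its eligible flank was 99.0 kb, and 1 on the other side, where it was 12.7 kb. That is 16.2 and 7.86 sites per 100 kb, the second from a single site. The site 81.5 kb from Tmem100 scored 266.6 and 140.7, and the one 8.11 kb away scored 248.1 and 129.3. The lone site on the other side was the lowest, at 14.3 and 6.67. The median over the 17 was 117.5 in replicate 1 and 50.4 in replicate 2, above the medians of all intergenic sites in both.

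Hes1, a transcriptional repressor induced by Notch, also had 17 sites, and it had none inside the gene or within 1 kb of its ends. They lay on both sides, 8 on one and 9 on the other, from 1.10 to 92.9 kb away. The highest, 28.9 kb from the gene, scored 227.8 and 110.1, and the nearest scored 133.1 and 75.5. Scores at the low end were 9.54 in replicate 1 and 2.95 in replicate 2.

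Pdgfra had 10 sites, with 9 downstream in 99.0 kb of flank and 1 upstream in 35.7 kb. Beside its highest site, those 12.0 kb and 62.1 kb downstream scored 192.5 and 188.3 in replicate 1 and 98.8 and 96.1 in replicate 2. The other 7 scored at most 40.3 in replicate 1 and 18.1 in replicate 2, so 3 sites stood far above the rest in both replicates.

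**Figure D4:**
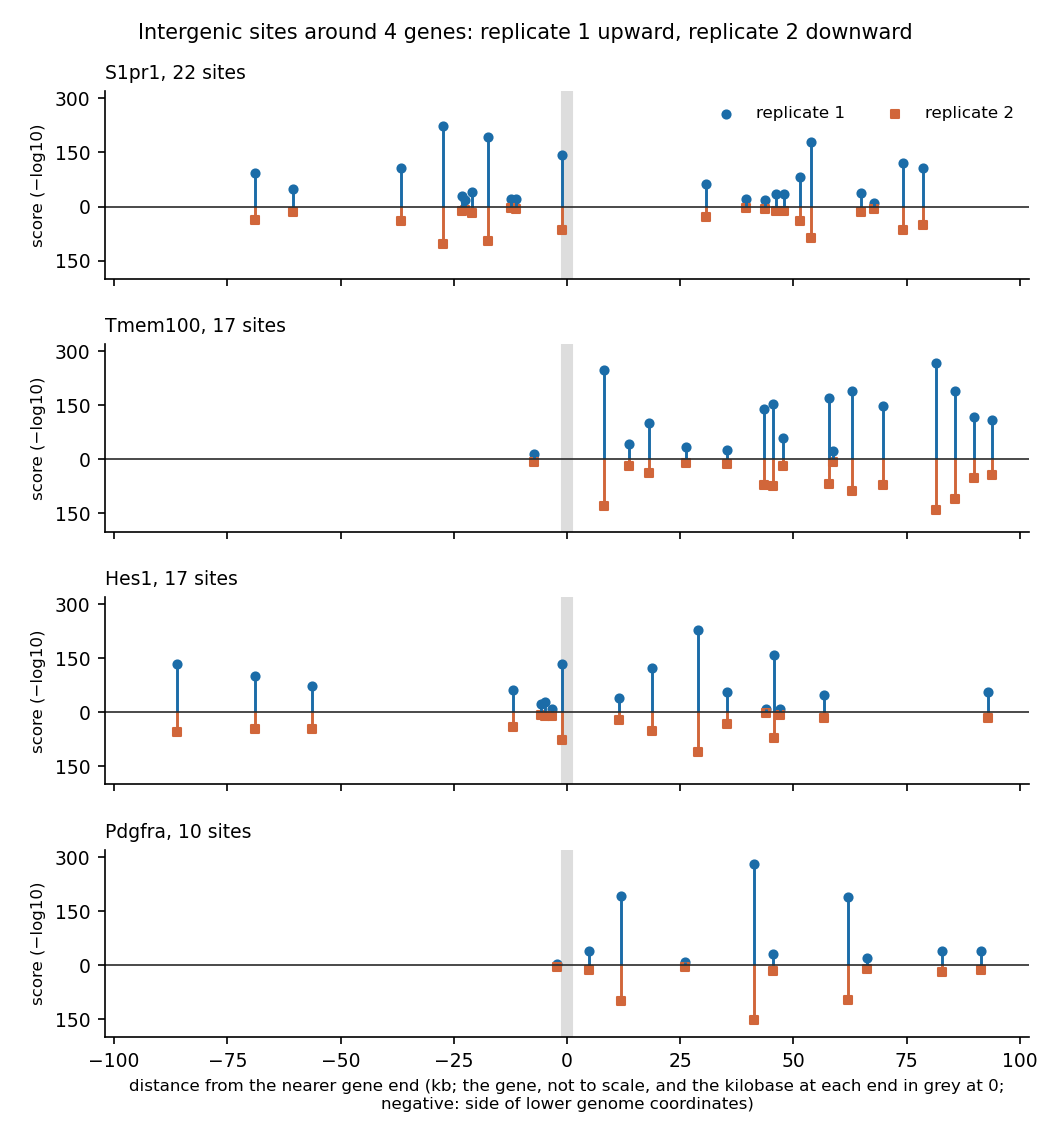
Intergenic FOXF1 sites around S1pr1, Tmem100, Hes1 and Pdgfra by distance from the nearer gene end, with the score (authors' −log10 value) in replicate 1 drawn upward in blue and in replicate 2 downward in orange. Sites high in replicate 1 are high in replicate 2, and the sites of Tmem100 and Pdgfra lie mostly on the side with the longer eligible flank, 99.0 kb against 12.7 and 35.7 kb.

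Several other genes had nearly as many sites. Ednrb, the endothelin receptor B gene, had 18, of which 10 lay upstream and 8 downstream, led by one 84.9 kb upstream with scores of 225.5 and 141.6. Gm5148 had 20, Sema6a and Rad51b 19 each, Tcim and Nrep 18 each, and Zfp608, Sh3bp4, Ppp1r14bl and Phlda1 17 each. Kdr, which encodes the chief VEGF receptor of vessels, had 14, with 7 upstream and 7 downstream. Its highest, 96.9 kb downstream, scored 221.7 and 119.2. Cldn5 had 11, all upstream, where 72.5 kb of flank was eligible against 0.092 kb downstream, and they scored from 11.1 to 272.5 in replicate 1, with a median of 102.3. Foxf1 itself had 11, from 1.14 to 85.3 kb away, all on the side with 99.0 kb of flank, since the other had 0.737 kb.

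The counts per gene, and which gene led, depended on the limits, the replicate and which genes share the space. When noncoding genes were also counted as genes, S1pr1 had 19 sites, against 22 before. Tmem100 had 6, Hes1 5, Pdgfra 2, and Ednrb and Foxf1 none, since a site nearer to a noncoding gene or inside one then no longer counts for the coding gene. With the limit at 50 kb in place of 100 kb, Gm5148 led with 17 and Tcim had 15, while S1pr1 had 14, Hes1 12, Ednrb 11, Tmem100 9 and Pdgfra 6. With the limit at 200 kb, 13 genes passed S1pr1, which stayed at 22, led by Gm5148 with 30. With the 10000 highest summits of each replicate Tmem100 led with 9, and S1pr1 had 6. With the summits of replicate 1 alone 14 genes passed S1pr1, led by Nrep, Rybp and Zfp608 with 37 each. In that replicate Tmem100 had 30, Hes1 29, S1pr1 28, Kdr 27, Cldn5 20 and Pdgfra 19. With those of replicate 2 alone, the counts were 18, 20, 26, 20, 13 and 11 in the same order, and S1pr1 led. Genes named in these comparisons that are not among the 15 with most sites were named after their values were seen.

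Among genes with no shared site inside them or within 1 kb of their ends, Hes1 and Ppp1r14bl had most intergenic sites, with 17 each. The others of this kind were named after their values were seen. Sstr4, a somatostatin receptor gene, and Tuba3b had 15 each, Hsd17b3, a steroid dehydrogenase gene of the testis, had 14, and Spred1, an inhibitor of Ras signalling, had 11. The highest site of Sstr4 scored 239.5 and 125.6, and that of Spred1, 7085 bp upstream, scored 203.3 and 90.5. Hsd17b3 shares its gap with Ercc6l2, so the name marks a position.

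Sites were also counted by gap, the space between 2 neighbouring coding genes, and most gaps held none. Gaps differ in length, and the share for evenly spread sites was not counted. Of 16822 gaps with eligible space, 4586 (27.3%) held a site and 218 held 10 or more. Most were in the gap between Gm5148 and Ankrd50, with 28 sites. Next came Rad51b to Zfp36l1 with 26, Tbc1d1 to Gm38457 with 23, and Ercc6l2 to Hsd17b3, Uchl5 to Rgs2 and Zfp217 to Bcas1 with 22 each. Ralgps2 to Tex35 and Arl4c to Sh3bp4 had 21 each, and Tmem100 to Mmd and Irf8 to Foxf1 had 20 each. The gap from Tmem100 to Mmd had the highest median score of these 10, at 107.7 and 46.1. The gap from Rad51b to Zfp36l1 had more sites but a median of 39.4 and 18.8.

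By density the leading gaps were shorter ones. The gap from D430019H16Rik to Bdkrb2, a bradykinin receptor gene, had 15 sites, or 22.0 per 100 kb of eligible sequence. That from Sparcl1, a matrix protein gene of vessels, to Dspp had 11, or 20.1 per 100 kb. Ahdc1 to Wasf2 had 19.8 per 100 kb, and Epn2 to Grap and Cd36 to Gnat3 had 18.2 each. Over all eligible flanks it was 1.62 per 100 kb.

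Chained at most 5 kb apart, 5805 of the sites (42.6%) stood in 2358 clusters of at least 2, and 7818 stood alone. There were 714 clusters of 3 or more and 77 of 5 or more. The largest had 9 sites each. One spanned 21.8 kb between Clec2d and Cd69, which encode C-type lectins, and its highest site scored 272.5 and 144.1. The other, 24.5 to 44.8 kb from Tbc1d1, spanned 20.3 kb and reached only 62.0 and 21.0. A cluster of 8 sites at Adamts1 spanned 15.2 kb and held the site that ranked second of all. Further clusters of 8 lay near Bahcc1, Tbc1d19, Sparcl1 and Dspp, and Ppp2r5a, and 1 of 7 near Lepr, the leptin receptor gene. Sites in clusters of 3 or more had a median score of 51.8 in replicate 1, against 43.8 for lone sites, and of 21.4 against 16.3 in replicate 2. The quartiles overlapped, at 27.9 and 72.6 for lone sites and 29.4 and 93.8 for clustered ones in replicate 1.

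Cell type markers differed widely in how many intergenic sites stood nearest to them, and endothelial genes led. These lists and the pathway lists below were chosen with earlier results of these data known. Their order therefore describes the lists and is not an independent finding. Of 40 endothelial genes, 35 had a site (87.5%, against 24.5% of all coding genes) and 20 had at least 5 (against 3.51% of all). From the 10000 highest summits of each replicate, 24 had one (against 7.2% of all). Endothelial genes also had longer flanks, with a median of 44.2 kb against 17.0 kb, so density was compared per length. The list had 9.05 sites per 100 kb of flank, and all coding genes had 1.62. The median was 4.5 sites per endothelial gene, against 0 over all coding genes. Beside S1pr1, Ednrb, Tmem100, Kdr and Cldn5, the list held Calcrl and Cdh5, the cadherin of endothelial junctions, with 10 each, and Sox17, an arterial transcription factor, with 10. These 3 genes were named after their values were seen. The 5 endothelial genes without a site were Tie1, Esam, Plvap, Eng and Mmrn2. Esam had no eligible flank, Plvap, Eng and Mmrn2 had 2.39 to 4.77 kb, and Tie1 had 23.3 kb.

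Mesenchymal lists had lower densities than the endothelial one. Of 28 fibroblast and matrix genes, 21 had a site, with 3.40 per 100 kb and 9 genes with one from the 10000 highest summits of each replicate. Pdgfra led this list by its highest site. Foxp1, a forkhead repressor, had 11, and the collagen gene Col1a2 had 8. Fgf10, a growth factor of branching, had 1, at 35223 bp, with scores of 117.5 and 58.3. Of 24 smooth muscle and pericyte genes, 9 had a site (37.5%), with 3.55 per 100 kb. Among these were Tbx3, a T-box factor with 9 sites, Itga8 with 8 and Kcnj8, a potassium channel of pericytes, with 4. The contractile genes Acta2, Myh11, Tagln, Cnn1 and Actg2 had none, but together they had only 29.8 kb of flank, and Tagln had no flank at all. Some other genes of the list had no site beside long flanks, such as Mef2c with 198 kb and Rgs5 with 82.9 kb. All 15 genes without a site had 419.5 kb in total. Acta2 and Tagln each had 1 shared site inside the gene and 1 within 1 kb of its ends, and Myh11 had 3 and 2. A site just inside an end counts in both, so these can be the same site. Cnn1 and Actg2 had neither.

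Epithelial, blood and neuronal genes had fewer sites per length of flank. Of 29 epithelial genes, 11 had a site (37.9%), with 1.49 per 100 kb, close to all coding genes. Gata6, a transcription factor, had 7, Foxa2 had 4 and Nkx2-1 had 3, and Sftpb, a surfactant protein gene, had 3. The 18 epithelial genes without a site had 969.1 kb of flank in total. They included the surfactant protein genes Sftpc, Sftpa1 and Sftpd, with 1.23, 9.22 and 41.9 kb of flank, and Sox2 and Sox9 with 198 kb each. All of these had a shared site inside the gene and one within 1 kb of its ends, which can be the same site. Gata6, Foxa2, Nkx2-1 and Scgb1a1 had no shared site inside the gene or within 1 kb of its ends. Of 20 genes of blood and immune cells, 5 had a site (25.0%, near the 24.5% of all coding genes), with 1.30 per 100 kb. None of the 20 had one from the highest summits, against 7.2% of all coding genes. Of 22 neuronal genes, 10 had a site (45.5%), with 0.927 per 100 kb over long flanks (median 109.3 kb). In the list of photoreceptor, pancreas and sperm genes it was 6 of 22 (27.3%), with 1.37 per 100 kb. Of 28 ribosomal protein genes, 5 had a site (17.9%), with 1.25 per 100 kb. Mesothelial genes differed from these, with 3.37 per 100 kb, near the fibroblast list, though 2 of 10 genes (20.0%) held all 19 sites. These were Podxl, a sialomucin that is also expressed in endothelium, with 13, and Wt1 with 6.

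**Figure D5:**
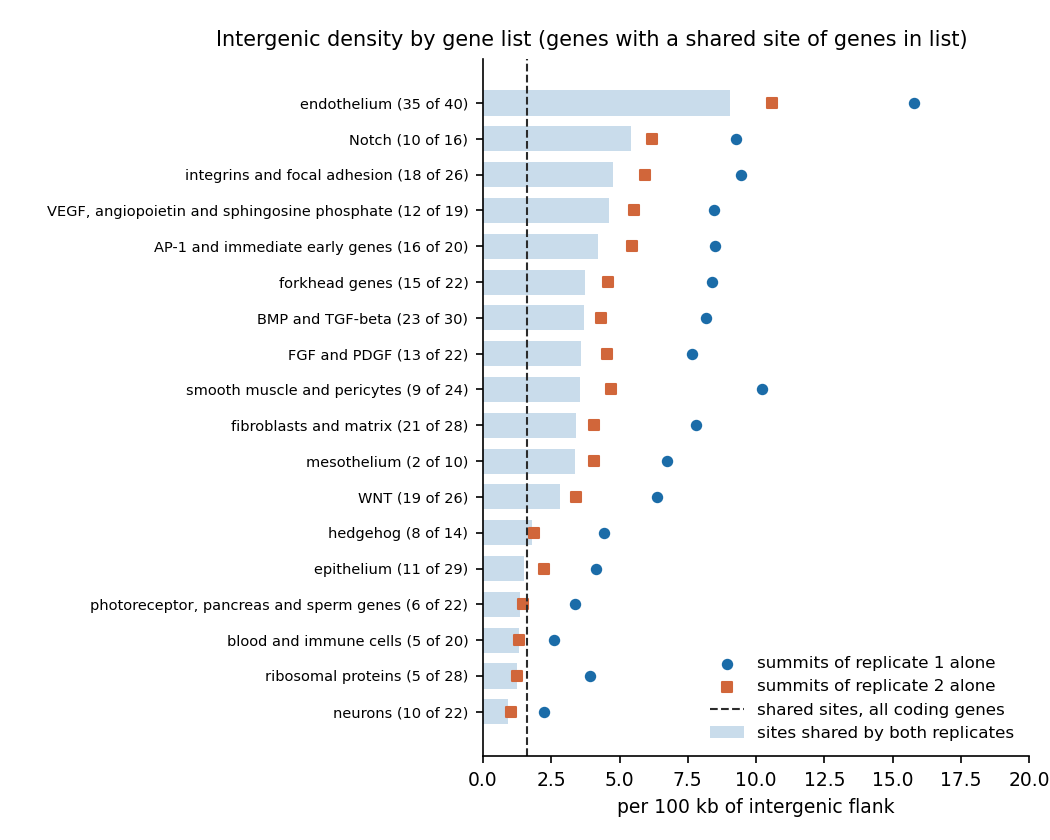
Intergenic FOXF1 sites per 100 kb of eligible flank for 18 gene lists (bars: sites shared by both replicates; circles and squares: all summits of replicate 1 and of replicate 2 alone; dashed line: shared sites over all coding genes), with the number of genes that have a site beside each name. Endothelial genes stand at 9.05 per 100 kb and lead in each replicate alone, while neuronal genes stand at 0.927, below the 1.62 of all coding genes. The lists were chosen with earlier results of these data known.

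The signalling pathways lay between the endothelial and the neuronal list in density. Over all coding genes 24.5% had a site, and the median flank was 17.0 kb. Median flanks of the pathway, adhesion and transcription factor lists ran from 26.5 to 98.7 kb, so their shares of genes with a site are to be read beside the density. VEGF, angiopoietin and sphingosine phosphate genes had sites at 12 of 19 (63.2%), with 4.62 per 100 kb. S1pr1 and Kdr held 36 of the 65 sites, and without them the density was 2.78. The list shares 6 genes with the endothelial list, and the other 13 had 2.30 per 100 kb. Among the receptors were Kdr and S1pr1, Flt1, the decoy VEGF receptor, with 5, and the co-receptor Nrp2 with 6. Of 16 Notch genes, 10 had a site (62.5%), with 5.41 per 100 kb. Without Hes1 and Hey1, which held 26 of the 49 sites, the density was 3.46. The target Hey1 had 9, led by a site with 228.3 in replicate 1, and the ligand Jag1 had 6, led by one 83900 bp upstream with 196.5 and 116.0. Notch2, Notch3, Hey2, Heyl, Mfng and Rfng had none, with 7.18 to 110.3 kb of flank. Of these, only Heyl and Rfng also had no shared site inside the gene or within 1 kb of its ends.

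BMP and TGF-beta genes had sites at 23 of 30 (76.7%, against 24.5% of all coding genes), with 3.69 per 100 kb. Among the ligands Bmp7 had 9, Bmp4 5 and Bmp2 4. The inhibitory Smad6 had 10, and of the receptors Acvr2a had 4 and Acvrl1, an endothelial receptor, had 1. Of 22 FGF and PDGF genes, 13 had a site (59.1%), with 3.58 per 100 kb. The receptor Fgfr2 had 13, and the feedback genes Spry2 and Dusp6 had 10 and 9. The highest site of Dusp6 lay 12163 bp downstream with 269.6 in replicate 1. Of 26 WNT genes, 19 had a site (73.1%), with 2.83 per 100 kb. The list was led by Axin2, a feedback inhibitor, with 8, and by the factors Tcf7l2 with 7 and Lef1 with 5. Of 14 hedgehog genes, 8 had a site (57.1%), with 1.80 per 100 kb, near all coding genes. Without Boc and Ptch1, which held 11 of the 21 sites, the density was 1.02. The co-receptor Boc had 6 and the receptor Ptch1 had 5. The ligands Shh, Ihh and Dhh had none, with 116.8, 10.7 and 1.68 kb of flank. Shh and Dhh had shared sites inside the gene and within 1 kb of its ends, and Ihh had neither.

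Adhesion and transcription factor lists were similar in density to the growth factor lists. Of 26 integrin and focal adhesion genes, 18 had a site (69.2%, against 24.5% of all coding genes), with 4.76 per 100 kb. The laminin-binding integrin gene Itga6 and the collagen-binding Itga1 had 14 each, and the highest site of Itga6, 7315 bp from the gene, scored 245.2 and 110.1. Of 22 forkhead genes, 15 had a site (68.2%), with 3.75 per 100 kb. Foxo1 had 8, Foxn2 7 and Foxf2, the closest relative of Foxf1, 5, led by a site 1167 bp downstream with 201.9 in replicate 1. Of 20 AP-1 and immediate early genes, 16 had a site, with 4.22 per 100 kb. Jun and Ier3 had 11 each and Klf6 had 8. Fosl1, Fosl2, Maff and Nr4a2 had none, with 9.19, 61.2, 8.12 and 99.0 kb of flank. Each of these without one had a shared site inside the gene or within 1 kb of its ends.

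Part of the space between coding genes is taken up by noncoding genes. Of the 13623 sites, 2925 (21.5%, exact interval 20.8 to 22.2%) lay inside a noncoding gene, 2740 of them inside a lncRNA gene. Within 1 kb of a lncRNA start lay 562. The share of the eligible sequence that these genes and starts take up was not counted, so these numbers do not set noncoding genes apart. The 8 noncoding genes with the highest sites were all lncRNA genes. Gm30760 held the Cd200 site (294.2 and 170.6), and Gm38686 lay within 1 kb of the Ddx1 site (302.9 and 152.8). The others were Gm51542, Gm42210, 1110002J07Rik, Gm830, Gm38906 and 5830408C22Rik, whose sites scored 249.4 to 279.3 in replicate 1 and 128.9 to 146.7 in replicate 2. Gm42210, in the gap between Gm5148 and Ankrd50, had 6 intergenic sites inside it or within 1 kb, and Gm38906, which overlaps the cluster between Clec2d and Cd69, had 7.

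The lncRNA promoter windows hold only sequence close to the start, so sites in them are near it by choice of window. Within these limits the median position of the site was 58 bp before the start. In 155 of the 224 windows the site lay before the start, the side that makes up most of the window. The median score of sites in these windows was 46.6 in replicate 1, against 46.0 for the other intergenic sites, and 22.9 in replicate 2, against 17.6. In replicate 2 these sites thus stood above the other intergenic sites, as gene-end sites did, whereas in replicate 1 the medians nearly met and gene-end sites lay lower. The quartiles of sites in the windows were 28.8 and 82.5 in replicate 1 and 10.2 and 42.5 in replicate 2.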

How the data were processed

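Binding was measured in 2 FOXF1 immunoprecipitations, each a pool of 3 lungs. Per the submitters' processing notes, peaks were called with MACS2 on mm10. Aligner, MACS2 version and options, duplicate handling and read depth were not given in the sources used here. Deposited files list 107388 and 61178 summits, and their scores are the authors' −log10 of a p or q value, which of them being unstated. The input entered through the authors' calls and was otherwise not analysed here. Summits of chromosomes 1 to 19, X and Y were paired and placed against 21887 protein-coding genes of RefSeq on GRCm38.p6, the assembly of mm10. Strand was taken from the promoter table, which covers 17492 of them. Site density used the sequence between the first and last gene of each chromosome, assembly gaps included. For sites at 1 to 100 kb, sequence up to 100 kb beyond these 2 genes was also counted, and chromosome lengths were not used. Shares carry exact (Clopper-Pearson) 95% intervals that cover counting error only. The intergenic sites and the 18 gene lists (397 symbols, all found) were chosen with earlier results of these data known. Named by rule were Foxf1 and Fendrr, the nearest genes of the 15 highest sites, the 15 genes with most sites, the 10 gaps with most sites and the 5 densest of at least 50 kb, the 8 largest clusters, the 8 noncoding genes with the highest sites, and in each list the 3 genes with most sites, the 3 with the highest site and up to 5 with none. One gene that this rule names is not reported here. Other genes and all microRNAs were named after their values were seen. On simulated summits, tested on 21887 genes, 1500 of 1500 planted intergenic sites were recovered (Python 3.11.15, pandas 2.3.3, SciPy 1.17.1). Alternatives changed the pairing distance, the score minimum, both distance limits, the gene set and the replicate used.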

Additional observations from a re-analysis of the deposited data

How the results depend on the processing

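With summits paired within 50 or 200 bp there were 12116 and 14432 intergenic sites, 26.9 and 26.3% of shared sites, at 23.1 and 25.2% of coding genes. With a score of at least 10 in both replicates there were 10409 sites, 26.2% of shared sites, at 21.1% of coding genes. The replicates alone differ far more in number of sites, because their lists differ in length, so that spread is a loose measure for the number. When each replicate was cut to its 10000 highest summits, 2287 sites remained, 30.4% of shared sites, at 2.72 per Mb and at 7.20% of coding genes. The share of shared sites was 22.5% with an inner limit of 5 kb, 20.6% with an outer limit of 50 kb and 32.2% with one of 200 kb, as the limits themselves set it. With noncoding genes counted as genes, 13.4% of coding genes had a site. Of the 88 named genes, 58 kept their highest site with the outer limit at 50 kb and 25 with noncoding genes counted, and 83 to 88 when either replicate was left out. Leaving out replicate 1 or replicate 2, the list of the other gave 15721 to 29283 sites, 25.7 to 27.3% of its summits, at 18.7 to 34.8 per Mb and at 25.5 to 35.8% of coding genes. Of the 15 genes with most sites, 9 stayed among the 15 with either replicate alone, 6 with the 10000 highest summits, 7 at 50 kb and 2 with noncoding genes counted. No paired analysis was possible because both replicates belong to 1 group. Read depth is not given, so a site missing from a list cannot be called unbound, and sequence was read only for lncRNA promoter windows and microRNA hairpins.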
